A study of Rattus norvegicus with 23 samples.

Results

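Endothelial RNA of 11 culture inserts exposed to N,N-dimethyltryptamine (DMT) was compared as 1 group with that of 6 inserts that had the same injury without it. The cells were primary rat brain endothelial cells grown on culture inserts together with pericytes and astrocytes, an arrangement used to model the blood-brain barrier, and the endothelial lysate of each insert gave 1 library. Of the 23 inserts sequenced, 17 enter this comparison. They are 6 with oxygen-glucose deprivation and reoxygenation alone (OGD/R, a culture model of ischemic stroke), 5 with OGD/R and DMT, and 6 with OGD/R, DMT and BD1063, a sigma receptor antagonist. The 11 exposed inserts are the latter 2 groups, pooled by their labels, so the comparison asks what DMT exposure changed whether or not BD1063 was present. The other 6 inserts were kept in normoxia and are given as a reference level. All 11 exposed inserts had also been through OGD/R, and none of the samples used here had DMT in normoxia or BD1063 without DMT. The sources used here do not give doses, times or whether inserts came from separate cell isolations. The p-values therefore measure the spread between these inserts, which may be technical.

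DMT is a tryptamine that binds serotonin receptors and sigma receptors, the latter being proteins of the endoplasmic reticulum membrane. Endothelial cells of the brain seal the vessel wall with tight junctions, carry nutrients through dedicated transporters, and make cholesterol themselves through a pathway whose enzymes are switched on together by the transcription factor SREBP2 when sterol in the endoplasmic reticulum runs low.

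The gene counts of the 17 libraries summed to between 12162759 and 17119247 reads, and 13834 genes had enough counts to be tested. The labelled cell type was checked with markers. The summed level of 9 endothelial markers was 8299 to 9471 CPM (gene counts scaled to a common library total) in OGD/R and 8978 to 9753 CPM in the exposed libraries. Markers of choroid plexus and epithelium summed to at most 1.24 CPM, those of neurons to at most 3.17 CPM and those of microglia and leukocytes to at most 9.22 CPM in these 17 libraries. Markers of other cells were present. Those of fibroblasts and meningeal cells summed to 136 to 419 CPM in OGD/R and 104 to 399 CPM in the exposed libraries, most of it from the collagen genes Col1a1 and Col3a1. Those of astrocytes summed to 136 to 212 CPM and 104 to 170 CPM, nearly all from the gap junction gene Gja1, and 6 of the 7 astrocyte markers had a mean under 1 CPM. The part of such cells in the results was not tested. A few libraries stood apart. In OGD/R 3 (the third OGD/R library), 58.8% of the read total fell in genes and noncoding RNA genes took 1.24% of the gene counts, where the other 5 OGD/R libraries had 71.9% to 75.2% and 0.0861% to 0.141%. The share of counts in ribosomal protein genes was 3.47% for OGD/R 5 and 3.68% for DMT 5, and 2.01% to 2.58% for the other 15 libraries. DMT 3 and DMT 5 had 62.6% and 68.1% of their read total in genes. Counts of calls are given with and without the libraries that moved them.

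DMT exposure was followed by many small differences. Of the 13834 genes, 215 were higher in the exposed libraries, a background share of 1.55%, and 311 were lower, a share of 2.25% (edgeR's quasi-likelihood test, Benjamini-Hochberg adjusted p under 0.05). The median size of the called log2 fold changes was 0.30. A fold of at least 1.5 was reached by 12 of the genes that rose and by 64 of those that fell. The excess of falls depended on OGD/R 3. Without that library, 190 of 13817 genes were higher and 190 lower. Genes not classed as protein-coding made up 86 of the 526 called genes, and 209 protein-coding genes rose while 231 fell. A separate fit of protein-coding genes alone tested 12706 genes and called 197 higher and 195 lower. In the largest noncoding falls, given below, OGD/R 3 stood far above the other OGD/R libraries. The genes that rose included Insig1, Uap1l1 and Gdf15, and 15 of 32 tested genes of cholesterol synthesis and its control. The protein-coding genes that fell with the smallest p included Cdca7, Cuedc2 and Exosc2, and the falls included 5 genes of the replicative helicase.

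The number of calls depended strongly on DMT 5. Without it, 1289 of 13935 genes were higher, a share of 9.25%, and 1987 were lower, a share of 14.3%. The counts of list members given below without DMT 5 stand against these larger shares. Without OGD/R 3 and DMT 5 together, 1651 of 13911 genes were higher (11.9%) and 1934 lower (13.9%). Without OGD/R 5 and DMT 5, 1912 of 13921 genes were called, 846 higher and 1066 lower. Leaving out other single libraries lowered the count of 526 by over 1.5 times in 5 cases, to 219 without OGD/R 2, 247 without OGD/R 6, 302 without BD1063 3 (the third library of the group with BD1063), 315 without OGD/R 5 and 325 without BD1063 5. With the ribosomal protein share of each library as a covariate, 1702 genes were called, 686 higher and 1016 lower. With DESeq2 size factors in the same test, 235 genes were higher and 287 lower. By limma on the logged deposited values, where the test, the scaling and the genes tested all differ, 69 genes were higher and 4 lower, and the median of all genes was then 0.05 on the log2 scale, against -0.01 in the count test. Those 4 genes were Cdca7, Cuedc2, AC128290.1 and AABR07072025.1. Of 80 called genes picked out for description, all 80 kept their call without DMT 5, 60 of 78 tested kept it without OGD/R 3 and 58 of 80 without OGD/R 5. Those that lost it are named with their groups below, except Erg, an endothelial transcription factor, at adjusted p = 0.0612 without OGD/R 3 and 0.0996 without OGD/R 5.

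**Figure D1:**
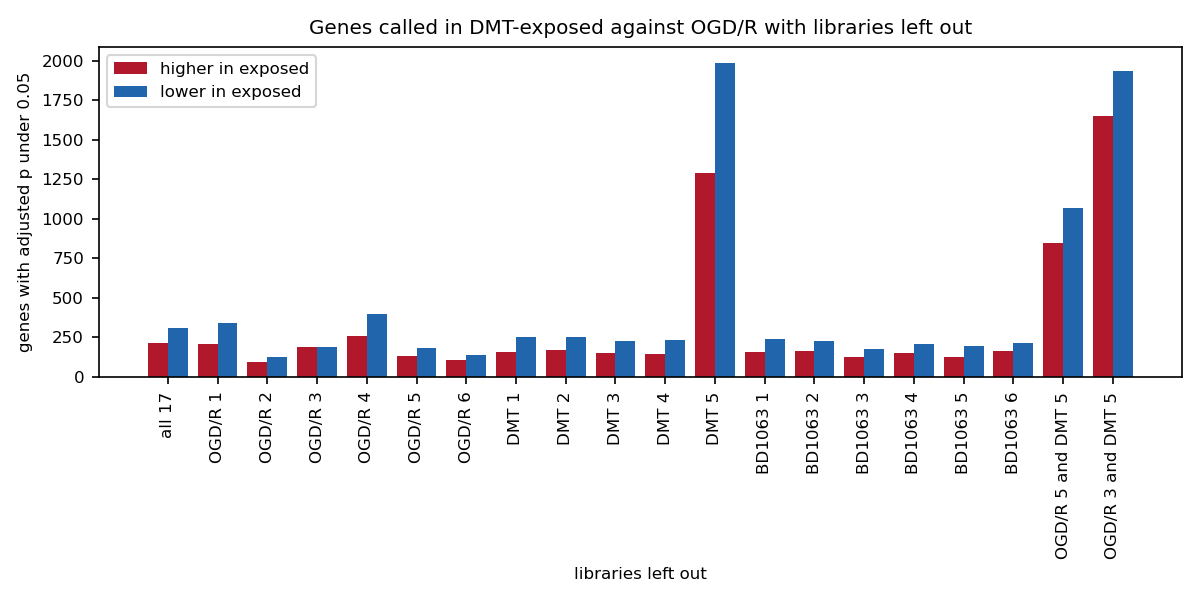
Number of genes with an adjusted p under 0.05 in DMT-exposed against OGD/R libraries (y axis), higher in red and lower in blue, with all 17 libraries and with those on the x axis left out. Leaving out DMT 5 raised the counts from 215 and 311 to 1289 and 1987, while leaving out OGD/R 2 lowered them to 95 and 124.

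The exposed group is made of inserts with and without BD1063, and both subgroups have the 6 OGD/R libraries as their control. Tested alone, the 5 DMT libraries gave 45 genes higher than OGD/R (0.325%) and 23 lower (0.166%), and the 6 libraries with BD1063 gave 257 higher (1.86%) and 478 lower (3.46%). Between the subgroups themselves, 0 of 13834 genes (0%) passed in edgeR, with a lowest adjusted p of 0.664, while 1005 had an unadjusted p under 0.05. DESeq2 called 1 gene there, Mcam, an adhesion molecule of endothelial and mural cells, and limma voom called 0. A missed threshold does not show that BD1063 was without effect, and the counts of the subgroups were not tested against each other. The subgroups' counts also moved with single libraries, from 26 to 1083 genes for DMT alone and from 76 to 975 for DMT with BD1063.

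In 77 genes the 11 exposed libraries did not overlap the 6 OGD/R libraries at all. Of these, 42 were higher in every exposed library (0.304% of the genes tested) and 35 were lower (0.253%). Without DMT 5 the number was 374, and without OGD/R 5 and DMT 5 it was 426.

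The clearest rise of a single gene was that of Insig1, in the sensor arm of cholesterol control. Insig1 codes for the endoplasmic reticulum protein that holds back SREBP activation when sterol is plentiful, and is itself a target of SREBP. It stood at 45.5, 41.7, 39.9, 48.8, 35.6 and 43.9 CPM in the 6 OGD/R libraries, and ranged from 60.5 through a median of 68.9 to 75.7 CPM in the 11 exposed libraries. Every exposed library was thus above every OGD/R library, and the normoxia libraries, at 41.7 to 48.2 CPM, lay with OGD/R. The difference was 0.69 ± 0.06 on the log2 scale (SE, adjusted p = 3.29e-07), the smallest p of all genes. It was 0.75 in DMT alone and 0.63 with BD1063, and the subgroups differed by -0.11 ± 0.07 (BD1063 minus DMT, adjusted p = 0.664). Srebf2, which codes for SREBP2, rose by 0.29 ± 0.06 (adjusted p = 0.0107). Of 11 tested genes of SREBP control 3 passed, these among them, and the other 8 did not, and without OGD/R 5 2 passed. Srebf1, the sister factor tied more to fatty acid synthesis, was at 0.10 ± 0.06 (adjusted p = 0.304). Tmem97, the sigma-2 receptor and a regulator of cholesterol traffic that SREBP2 also induces in human cells, was at -0.14 ± 0.07 (adjusted p = 0.22), so its estimate lay on the other side of 0 from the 3 that rose.

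The mevalonate pathway makes the isoprene units of cholesterol, and its enzymes rose in part. Of 9 enzymes, 4 rose (Hmgcs1, Mvk and Fdps among them) and 0 fell, with a median log2 fold change of 0.22 against -0.01 over all genes tested. Hmgcs1, the synthase at the head of the pathway, was at 124, 109, 120, 130, 113 and 115 CPM in OGD/R and from 149 through 159 to 170 CPM in the exposed libraries. The groups did not overlap, and the log2 fold change was 0.43 ± 0.05 (adjusted p = 1.39e-05). Pmvk, a kinase of the same pathway, was at -0.13 ± 0.12 (adjusted p = 0.541), with DMT 5 holding the highest exposed value of 36.6 CPM against a median of 19.7 CPM. Without DMT 5, 5 of the 9 enzymes rose and 1, Pmvk, fell, and without OGD/R 5, 5 rose. Without OGD/R 3, 2 rose, with Mvk at adjusted p = 0.0619 and Fdps at 0.053.

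The sterol branch turns farnesyl units into squalene, lanosterol and cholesterol. All 12 of its enzymes were tested, 8 rose (Fdft1, Sqle, Lss, Cyp51, Msmo1, Hsd17b7, Sc5d and Dhcr7) and 0 fell. The median log2 fold change was 0.29, and all 12 estimates were above 0. Fdft1, squalene synthase and the first enzyme committed to sterols, was at 78.1, 84.1, 77.7, 79.95, 78.9 and 74.7 CPM in OGD/R and from 89.3 through 97.5 to 108 CPM in the exposed libraries, with no overlap (0.30 ± 0.05, adjusted p = 0.00213). Msmo1, a sterol C4 demethylase component, went from 82.1 to 108 CPM in OGD/R to 115 through 120 to 134 CPM, also with no overlap (0.39 ± 0.06, adjusted p = 0.0015). Dhcr7, the reductase of the last step in one route to cholesterol, rose by 0.38 ± 0.07 (adjusted p = 0.00709), and Sqle, the oxygen-dependent squalene epoxidase, by 0.30 ± 0.06 (adjusted p = 0.00884). The smallest estimate belonged to Ebp, the sterol isomerase. OGD/R itself had set several of these genes above normoxia, with log2 differences of 0.34 for Sqle and 0.21 for Fdft1 that share the OGD/R libraries with the comparison above. Leaving out DMT 5 gave 10 called enzymes, leaving out OGD/R 3 gave 7 (Hsd17b7 at adjusted p = 0.0564), and leaving out OGD/R 5 gave 6 (Lss at 0.0636 and Hsd17b7 at 0.0791).

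**Figure D2:**
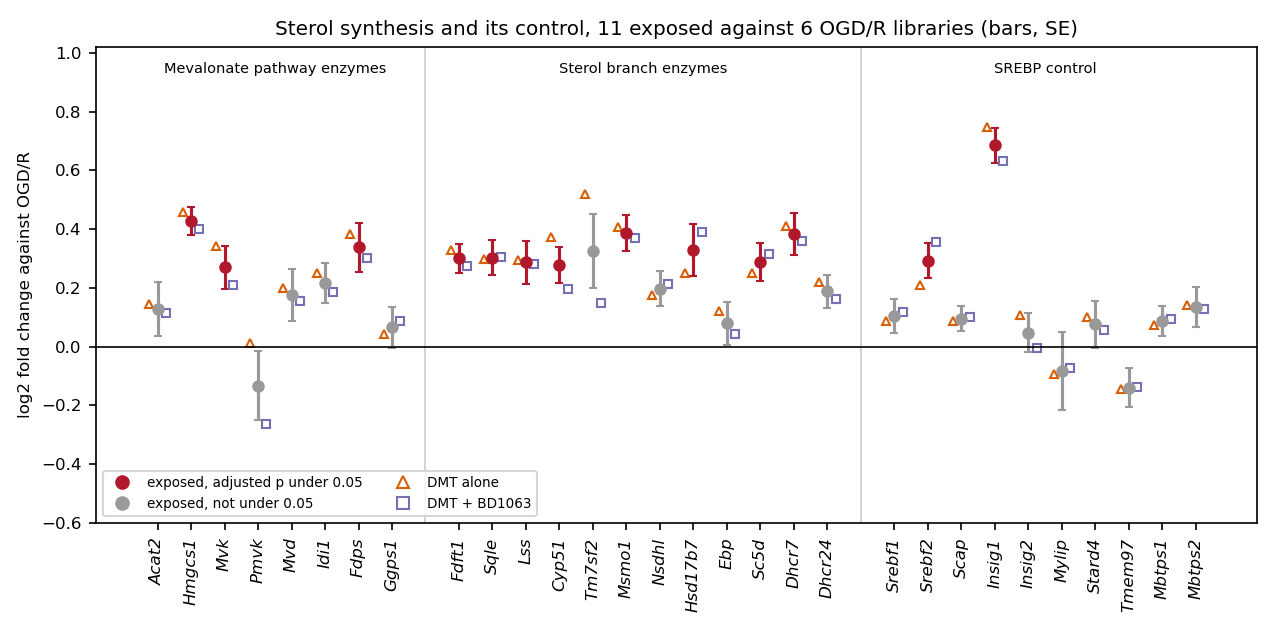
Log2 fold change against OGD/R (y axis) of genes tested in the mevalonate pathway, the sterol branch and SREBP control (x axis, in pathway order). Filled points are the 11 exposed libraries with SE bars, red where the adjusted p was under 0.05; open triangles are DMT alone and open squares DMT with BD1063. Insig1 stands highest at 0.69, and all 12 sterol branch points lie above 0.

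In fatty acid synthesis, which answers more to SREBP1, 1 of 14 genes rose, Scd2, a stearoyl-CoA desaturase (0.40 ± 0.08, adjusted p = 0.0085), 3 rose without DMT 5 and 5 without OGD/R 3 and DMT 5. Of 9 targets of the liver X receptors, which answer to sterol excess, 0 passed in edgeR (3 had an unadjusted p under 0.05). DESeq2 called 1 of them higher, limma voom 2 higher and 1 lower, and edgeR 2 higher and 1 lower without DMT 5.

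The promoters of 3 of the genes that rose are shown because SREBP acts at promoters together with NF-Y, a factor that binds the CCAAT box. Each is the window from 250 bases before to 50 bases after the start that RefSeq gives on GRCr8, read on the gene's own strand, with each CCAAT box in capitals (CCAAT, or ATTGG where it lies on the other strand). Insig1 lies at chr4:8057720-8058019 on the minus strand, Hmgcs1 at chr2:53382054-53382353 on the plus strand and Msmo1 at chr16:29746863-29747162 on the plus strand.
Insig1: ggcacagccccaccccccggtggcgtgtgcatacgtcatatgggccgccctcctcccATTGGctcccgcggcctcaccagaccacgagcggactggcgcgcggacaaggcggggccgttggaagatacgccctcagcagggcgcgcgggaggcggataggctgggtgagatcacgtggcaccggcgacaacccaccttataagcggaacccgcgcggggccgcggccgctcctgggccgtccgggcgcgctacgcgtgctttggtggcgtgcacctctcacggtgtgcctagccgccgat
Hmgcs1: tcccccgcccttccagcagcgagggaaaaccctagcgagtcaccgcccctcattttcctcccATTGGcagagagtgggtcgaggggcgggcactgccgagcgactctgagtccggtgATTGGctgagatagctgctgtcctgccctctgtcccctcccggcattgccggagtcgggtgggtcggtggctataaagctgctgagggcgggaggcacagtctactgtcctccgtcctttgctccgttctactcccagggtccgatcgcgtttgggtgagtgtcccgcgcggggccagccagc
Msmo1: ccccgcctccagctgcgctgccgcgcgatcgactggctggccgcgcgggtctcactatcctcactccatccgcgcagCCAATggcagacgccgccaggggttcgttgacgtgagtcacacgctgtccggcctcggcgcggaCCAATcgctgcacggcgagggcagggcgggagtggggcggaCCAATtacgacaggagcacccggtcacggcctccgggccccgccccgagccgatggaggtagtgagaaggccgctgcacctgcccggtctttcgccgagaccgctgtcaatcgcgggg
The boxes began 193 bases before the start in Insig1, 188 and 133 bases before it in Hmgcs1, and 173, 109 and 68 bases before it in Msmo1. Of the 15 called genes of the 3 sterol lists, 11 had a single window in the RefSeq table, and 9 of these held CCAAT on either strand. Of all 32 tested members of the lists, 24 had a window and 18 held it, while 37.4% of the 10373 windows of tested genes did. The letters TCACNCCAC of the classical sterol regulatory element were in none of the 24 windows and in 1.07% of those of tested genes. A match describes the letters in this window and not a site in use.

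Lysosomal and autophagy genes rose in smaller number. Of 29 lysosomal genes, 3 rose and 1 fell, with a median of 0.10. Tpp1, a lysosomal tripeptidyl peptidase, was at 92.8, 72.8, 78.9, 86.8, 69.4 and 74.3 CPM in OGD/R and from 87.3 through 100 to 108 CPM in the exposed libraries (0.32 ± 0.05, adjusted p = 0.00286). Its exposed values overlapped OGD/R 1 and lay under the normoxia range of 110 to 118 CPM. Gaa, the enzyme that breaks down lysosomal glycogen, did not overlap, at 37.5 to 45.8 CPM in OGD/R and 48.0 to 54.5 CPM in the exposed libraries (0.25 ± 0.05, adjusted p = 0.00718). Ctsz, a cathepsin, went the other way, at -0.31 ± 0.08 (adjusted p = 0.0298). Without DMT 5, 9 lysosomal genes rose and 1 fell, without OGD/R 5, 4 rose and 1 fell, and without OGD/R 5 and DMT 5, 12 rose and 1 fell.

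Among 12 genes of the TFEB response, by which cells answer lysosomal stress, 3 rose and 0 fell, with a median of 0.14. Flcn, folliculin, takes part in nutrient signalling at the lysosome and holds back TFEB and TFE3. It was at 21.1, 20.2, 18.4, 17.8, 20.5 and 18.9 CPM in OGD/R and from 24.1 through 27.2 to 32.4 CPM in the exposed libraries, with no overlap (0.51 ± 0.07, adjusted p = 0.000344). Its partner in lysosomal nutrient sensing, the GTPase gene Rragc, rose by 0.15 ± 0.04 (adjusted p = 0.0478). Gpnmb, a membrane glycoprotein that accumulates when lysosomes are loaded with lipid, went from 9.75 through 16.1 to 18.4 CPM in OGD/R to 16.5 through 25.5 to 37.5 CPM in the exposed libraries (0.80 ± 0.15, adjusted p = 0.00711). The groups overlapped, and the normoxia libraries lay lowest, at 5.50 to 10.1 CPM. Without DMT 5, 5 of the 12 rose. Without OGD/R 3 and without OGD/R 5, 2 rose, with Rragc at adjusted p = 0.0554 and 0.0571.

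Of 18 core autophagy genes, 3 rose and 0 fell, and the median was 0.11. Ulk1, the kinase that starts autophagosome formation, was at 30.1, 29.6, 27.2, 28.2, 21.9 and 27.7 CPM in OGD/R and from 32.7 through 35.8 to 41.0 CPM in the exposed libraries. The groups did not overlap (0.37 ± 0.07, adjusted p = 0.00884), and normoxia, at 32.2 to 44.2 CPM, covered the exposed range. Wipi1, which binds the lipid of nascent autophagosomes, rose by 0.24 ± 0.05 (adjusted p = 0.0125), also with no overlap, and Atg9a, a lipid scramblase of the same step, by 0.21 ± 0.06 (adjusted p = 0.0466). The count was 3 without DMT 5, 3 without OGD/R 3 and 2 without OGD/R 5, where Atg9a was at adjusted p = 0.114.

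Among called genes with settled symbols and 4 CPM or more, Uap1l1 and Gdf15 had the largest rises. Uap1l1 codes for a relative of the enzyme that makes UDP-N-acetylglucosamine. It was at 6.66, 4.89, 5.10, 4.79, 7.09 and 5.06 CPM in OGD/R and from 8.38 through 11.03 to 12.8 CPM in the exposed libraries, so that the groups were apart (0.96 ± 0.10, adjusted p = 8.75e-06). Gdf15, a secreted stress cytokine that the transcription factor ATF4 can induce, was at 13.1, 13.3, 12.1, 17.8, 8.81 and 9.75 CPM in OGD/R and from 18.4 through 23.5 to 31.5 CPM in the exposed libraries, also with no overlap (0.93 ± 0.13, adjusted p = 0.000375). Of 25 ATF4 targets tested, 2 rose, Gdf15 and the amino acid transporter gene Slc38a2 (0.33 ± 0.08, adjusted p = 0.017), with a median of 0.05, and 4 rose and 1 fell without DMT 5. When edgeR asked for a fold above 1.2, 4 genes passed, all higher, namely Insig1, Uap1l1, Gdf15 and AABR07060293.1.

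**Figure D3:**
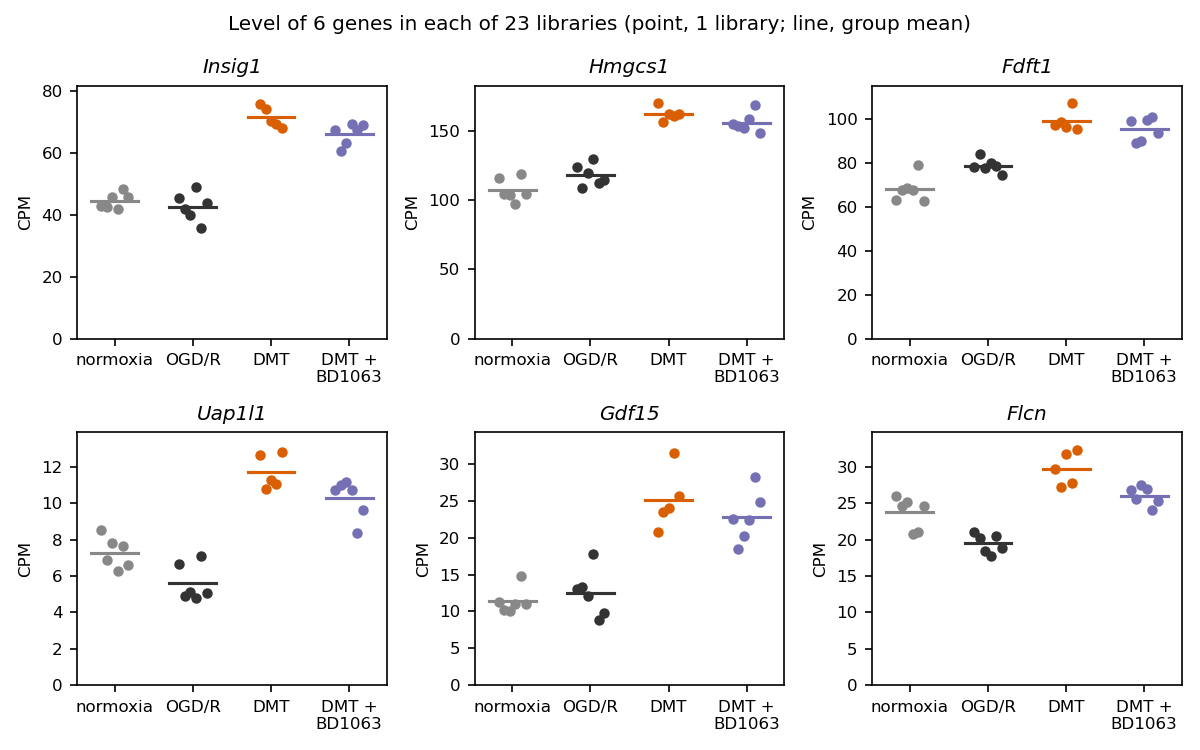
Level in CPM (y axis, from 0) of Insig1, Hmgcs1, Fdft1, Uap1l1, Gdf15 and Flcn in each of the 23 libraries by group (x axis). Each point is 1 library and each line a group mean. In all 6 genes the lowest exposed library is above the highest OGD/R library.

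Within the same limits of level and symbol, the remaining large rises were Scnn1a (0.57 ± 0.13, an epithelial sodium channel subunit), Unc13a (0.56 ± 0.16, a vesicle priming protein), Cpt1b (0.52 ± 0.12, a mitochondrial carnitine acyltransferase), Xylb (0.50 ± 0.09, xylulokinase) and Kansl1l (0.50 ± 0.13). Scnn1a, Unc13a, Cpt1b and Kansl1l were rare in these cells, with exposed means of 4.66 to 5.50 CPM. Without OGD/R 5, Unc13a was at adjusted p = 0.117 and Kansl1l at 0.0835, and without OGD/R 3 Kansl1l was at 0.0717. Xylb was at 14.5 through 17.4 to 19.4 CPM in OGD/R and 18.7 through 23.6 to 28.4 CPM in the exposed libraries. It was the gene of this group whose subgroups lay farthest apart, at 0.33 in DMT alone and 0.62 with BD1063, and that difference of 0.29 ± 0.09 did not pass (adjusted p = 0.664).

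Clock genes and hypoxia genes held a few rises. Of 15 clock genes 4 rose, namely Per1 and Cry2, repressors of the clock, Tef, a PAR bZIP output factor, and Bhlhe40, which also answers to hypoxia. Per1 had been far lower in OGD/R, at 26.3 to 38.9 CPM, than in normoxia, at 60.8 to 87.8 CPM, and was at 32.8 through 43.6 to 50.8 CPM in the exposed libraries (0.37 ± 0.09, adjusted p = 0.0248). Its exposed range thus overlapped OGD/R and stayed below normoxia. Cry2 rose by 0.31 ± 0.06 (adjusted p = 0.0109) and Bhlhe40 by 0.42 ± 0.10 (adjusted p = 0.0187). Without DMT 5, 7 clock genes rose. Without OGD/R 3, 3 did, with Tef at adjusted p = 0.0761, and without OGD/R 5, 2 did, with Per1 at 0.0637 and Tef at 0.0631.

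Of 30 targets of the hypoxia-inducible factors, 2 rose, Bhlhe40 and Ndrg1, with a median of 0.06, and 7 rose without DMT 5. Ndrg1, a stress response gene, was at 185, 171, 181, 175, 198 and 175 CPM in OGD/R and from 214 through 227 to 257 CPM in the exposed libraries, with no overlap (0.36 ± 0.05, adjusted p = 0.00043). It lay between the OGD/R libraries and the normoxia libraries, which ran from 282 to 340 CPM. Among 24 genes of VEGF signalling and angiogenesis 2 rose, and 4 without DMT 5. Angpt2, a ligand that loosens vessel walls by blocking Tie2, went from 495 through 536 to 604 CPM in OGD/R to 604 through 694 to 752 CPM in the exposed libraries, with no overlap (0.34 ± 0.05, adjusted p = 0.000829). Vegfb rose by 0.48 ± 0.11 (adjusted p = 0.0181), while Vegfa was at 0.19 ± 0.08 (adjusted p = 0.207). Bcl2l11, which codes for the cell death protein BIM, rose by 0.37 ± 0.07 (adjusted p = 0.00612) with no overlap, as 1 of 12 tested genes of the BCL2 family.

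A part of the replication genes fell. Before a cell copies its DNA, the origin recognition complex and the MCM helicase are loaded at origins, and the genes of both are driven by E2F factors as cells enter the cycle. Of 22 genes of licensing and DNA synthesis, 8 fell (Mcm2, Mcm3, Mcm5, Mcm6, Mcm7, Orc1, Gins1 and Lig1) and 0 rose, with a median of -0.23 and all 22 estimates below 0. Without DMT 5, 17 fell. Without OGD/R 5, 6 fell, with Gins1 at adjusted p = 0.0847 and Mcm6 at 0.0786. Leaving out OGD/R 3 gave 4, with Mcm2 at 0.0505, Mcm3 at 0.0519, Mcm6 at 0.0877 and Lig1 at 0.0837. The median of the list was -0.19 in DMT alone and -0.23 with BD1063. In DMT alone Orc1 passed (edgeR, adjusted p = 0.0407), while Mcm7 (0.140) and Gins1 (0.308) did not. With BD1063 these genes were at 0.0363, 0.0224 and 0.0290.

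Orc1, the largest subunit of the origin recognition complex, was at 21.1, 18.9, 21.2, 21.6, 17.03 and 19.6 CPM in OGD/R and from 12.9 through 15.7 to 17.6 CPM in the exposed libraries. OGD/R 5 alone reached into the exposed range (-0.34 ± 0.07, adjusted p = 0.0111). Mcm5, a helicase subunit, was at 156, 177, 182, 166, 175 and 207 CPM in OGD/R and from 134 through 148 to 163 CPM in the exposed libraries (-0.26 ± 0.06, adjusted p = 0.016). Mcm7, another subunit, went from 142 through 152 to 175 CPM to 108 through 122 to 157 CPM (-0.30 ± 0.07, adjusted p = 0.0146), and its highest exposed value was that of DMT 5. The helicase groups overlapped at their edges. Gins1, of the complex that makes the helicase active, was at -0.46 ± 0.12 (adjusted p = 0.0323), and Lig1, the ligase that joins new DNA fragments, at -0.23 ± 0.06 (adjusted p = 0.0394).

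OGD/R had set these genes far above normoxia, and the exposed libraries stayed well above it. Mcm5 was at 65.9 to 83.6 CPM in the normoxia libraries and Orc1 at 7.49 to 10.5 CPM. The log2 difference of OGD/R against normoxia was 1.25 ± 0.07 for Mcm5 and 1.14 ± 0.08 for Orc1, in a comparison that shares the OGD/R libraries and that called 2559 genes higher (18.5%) and 2277 lower (16.5%). Among 22 mitosis and proliferation genes 1 fell, Kif23, a motor of the dividing cell's midzone (-0.22 ± 0.06, adjusted p = 0.0464), 10 fell without DMT 5, 4 without OGD/R 5 and 0 without OGD/R 3, where Kif23 was at adjusted p = 0.0861. Cdca7, a cell cycle gene that E2F and MYC drive, fell without overlap, from 39.3 through 43.9 to 45.0 CPM to 27.4 through 32.7 to 37.3 CPM (-0.40 ± 0.06, adjusted p = 0.0015).

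**Figure D4:**
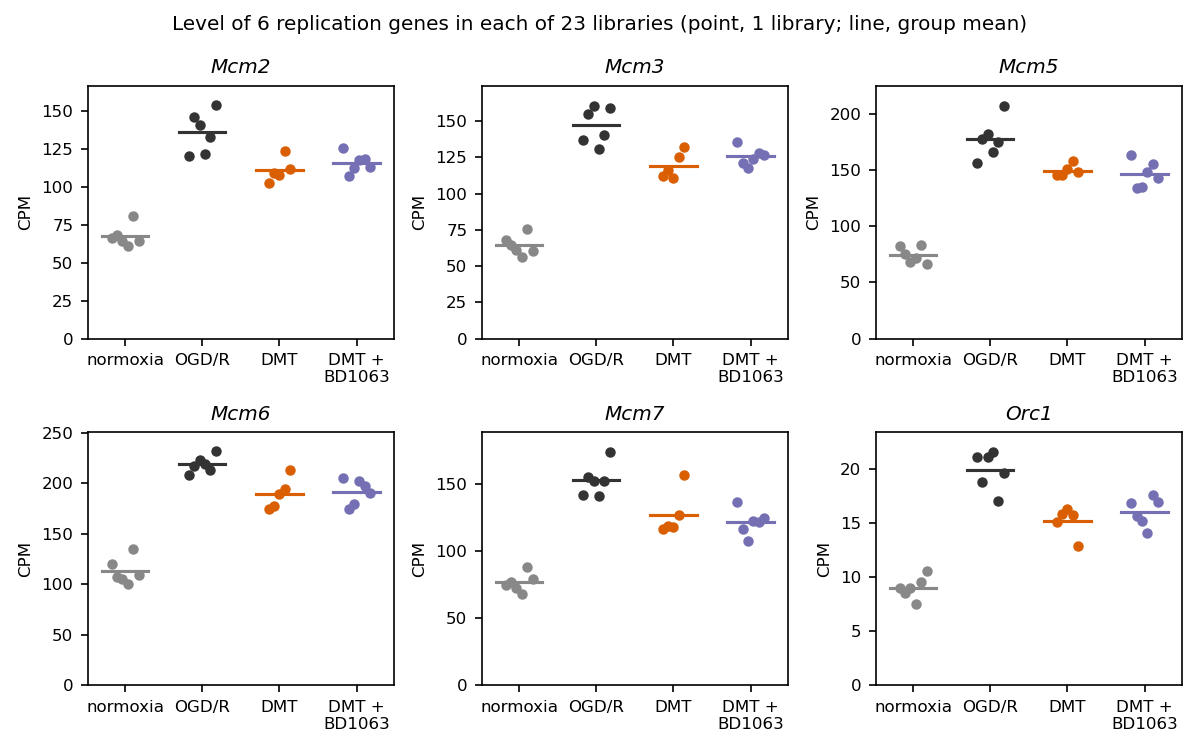
Level in CPM (y axis, from 0) of Mcm2, Mcm3, Mcm5, Mcm6, Mcm7 and Orc1 in each of the 23 libraries by group (x axis), with 1 point per library and a line at each group mean. The exposed means lie below the OGD/R means and above the normoxia means in all 6 genes, and the highest DMT point of Mcm7 is DMT 5.

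The promoters of 3 helicase genes are shown because E2F factors, named above as drivers of these genes, act at promoters. The letters TTTCGCGC and TTTGGCGC of E2F sites are in capitals on either strand. Other forms of the E2F site were not searched or marked. Mcm5 lies at chr19:13488563-13488862 on the plus strand, Mcm6 at chr13:42404303-42404602 on the minus strand and Mcm7 at chr12:22163129-22163428 on the minus strand, again on GRCr8 and from RefSeq.
Mcm5: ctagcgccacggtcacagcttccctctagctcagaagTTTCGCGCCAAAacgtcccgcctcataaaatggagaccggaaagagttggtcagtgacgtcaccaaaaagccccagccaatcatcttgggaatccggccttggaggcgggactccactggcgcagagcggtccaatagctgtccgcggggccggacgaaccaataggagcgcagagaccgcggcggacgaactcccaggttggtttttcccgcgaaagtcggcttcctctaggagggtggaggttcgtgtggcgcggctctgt
Mcm6: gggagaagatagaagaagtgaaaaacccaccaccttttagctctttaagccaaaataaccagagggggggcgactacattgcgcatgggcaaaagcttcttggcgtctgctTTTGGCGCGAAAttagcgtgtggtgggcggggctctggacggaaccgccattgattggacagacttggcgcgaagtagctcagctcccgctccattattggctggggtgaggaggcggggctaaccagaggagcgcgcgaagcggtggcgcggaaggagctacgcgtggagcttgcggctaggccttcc
Mcm7: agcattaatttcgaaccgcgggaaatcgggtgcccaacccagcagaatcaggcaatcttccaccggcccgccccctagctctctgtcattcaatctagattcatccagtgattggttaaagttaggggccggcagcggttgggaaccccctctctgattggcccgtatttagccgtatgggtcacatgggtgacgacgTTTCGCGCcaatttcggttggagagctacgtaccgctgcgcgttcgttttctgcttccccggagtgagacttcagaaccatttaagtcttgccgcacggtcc
In Mcm5 and Mcm6 a match on each strand shared 4 bases, and in Mcm7 the match shared 1 base with a CCAAT box. Of the 8 genes that fell, 7 had a window and all 7 held an E2F site of the forms searched. Of the 22 tested members, 17 had a window and 12 held one, against 1.48% of the windows of tested genes.

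Genes of protein folding and energy supply held falls too. Of 20 heat shock and chaperone genes 4 fell and 0 rose, with a median of -0.14. Hspd1, the mitochondrial chaperonin, went from 208 through 228 to 251 CPM in OGD/R to 178 through 193 to 239 CPM in the exposed libraries (-0.24 ± 0.06, adjusted p = 0.0179), with DMT 5 the highest exposed library. Stip1, the co-chaperone that links HSP70 to HSP90, was at -0.16 ± 0.04 (adjusted p = 0.0219), and Hspa4 and the chaperonin subunit gene Tcp1 also fell. In DMT alone Hspd1 and Stip1 did not pass (edgeR, adjusted p of 0.153 and 0.112), and with BD1063 they did (0.0316 and 0.0493). Without DMT 5, 12 of the 20 fell. Leaving out OGD/R 3 gave 2, with Hspa4 at adjusted p = 0.0795 and Tcp1 at 0.051. Without OGD/R 5, 0 did, with Hspd1 at 0.051, Stip1 at 0.0712, Hspa4 at 0.0957 and Tcp1 at 0.0624. Of 17 aminoacyl-tRNA synthetase genes, which charge tRNAs, 2 fell, Kars (-0.19 ± 0.04, adjusted p = 0.017) and Dars (-0.24 ± 0.06, adjusted p = 0.0198), 8 fell without DMT 5 and 0 without OGD/R 5, where Kars was at adjusted p = 0.0526 and Dars at 0.0718. Of 32 nuclear genes of oxidative phosphorylation 2 fell, with a median of -0.17 and no estimate above 0. Among them was Ndufs1, of complex I (-0.21 ± 0.05, adjusted p = 0.0148), whose groups did not overlap. Without DMT 5, 24 of the 32 fell, and without OGD/R 5, 1 did. The median was -0.23 without DMT 5 and -0.085 without OGD/R 5. It was -0.08 in DMT alone and -0.24 with BD1063. Of the 13 mitochondrially coded transcripts 0 passed in edgeR, with or without DMT 5, and 0 had an unadjusted p under 0.05 or a call in DESeq2 or limma voom.

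**Figure D5:**
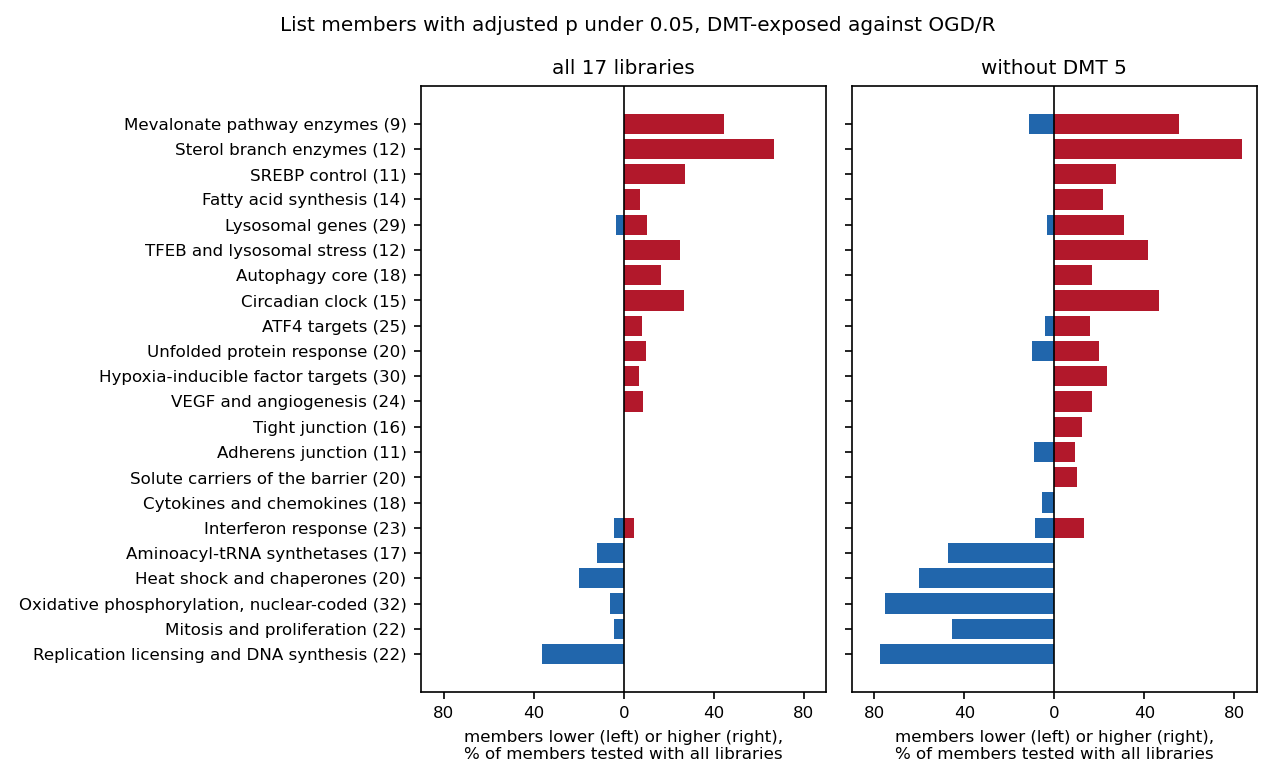
Share of each gene list's tested members (number in brackets) with an adjusted p under 0.05, lower in blue to the left and higher in red to the right (x axis, percent of the members tested with all libraries), with all 17 libraries and without DMT 5. Sterol branch enzymes rose and replication genes fell most often in both panels, and 0 of 16 tight junction genes passed in edgeR with all libraries (2 had an unadjusted p under 0.05).

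Within the same limits, the 6 largest falls were of genes not classed as protein-coding, and in each OGD/R 3 stood far above the other OGD/R libraries. OGD/R 3 held 181 CPM of Rpph1, which codes for the RNA part of ribonuclease P, where the remaining OGD/R libraries held 0.249 to 4.30 CPM. Of 5.8S ribosomal RNA, listed as 5_8S_rRNA, it held 1190 CPM against 1.31 to 14.7 CPM. The same library held the highest value of 5S_rRNA, Rn5-8s, Metazoa_SRP and 7SK. Fitted log2 differences of these 6 genes lay between -6.50 and -3.43. Without OGD/R 3, 5S_rRNA was at -0.88 (adjusted p = 0.458), Rn5-8s at -0.77 (adjusted p = 0.454), 5_8S_rRNA at -0.29 (adjusted p = 0.796) and 7SK at -0.83 (adjusted p = 0.122), and Rpph1 and Metazoa_SRP had too few counts to be tested. The libraries were made from poly-A RNA, and how reads were divided among the near-identical copies of ribosomal RNA genes was not given.

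Of the protein-coding genes within those limits, Tagln, Nnat, Tpm2 and Slc2a4 had the largest falls. In DMT alone and with BD1063, Tagln was at -0.47 and -0.82, Tpm2 at -0.40 and -0.75, Slc2a4 at -0.36 and -0.76, and Nnat at -0.65 and -0.60. None passed in DMT alone (edgeR, adjusted p of 0.120 to 0.427). The subgroup differences did not pass either, at adjusted p = 0.664 for Tagln, Tpm2 and Slc2a4 and 0.925 for Nnat. Tagln, an actin-binding protein of smooth muscle, was at 208, 248, 133, 244, 177 and 228 CPM in OGD/R and from 88.2 through 127 to 184 CPM in the exposed libraries (-0.65 ± 0.15, adjusted p = 0.0158). Tpm2, a tropomyosin, went from 16.9 through 24.8 to 30.1 CPM to 13.4 through 14.9 to 21.6 CPM (-0.58 ± 0.12, adjusted p = 0.0101). In both genes OGD/R 3 was the lowest OGD/R library, and the groups overlapped. Pericytes, which carry contractile proteins, were grown in the same co-culture. The 9 pericyte markers summed to 39.3 through 60.9 to 81.7 CPM in OGD/R and 28.4 through 40.3 to 55.9 CPM in the exposed libraries, a sum made up mostly by Acta2, smooth muscle actin (-0.72 ± 0.22, adjusted p = 0.0586). Of the 6 tested, 0 passed in edgeR (2 had an unadjusted p under 0.05, both lower), 1 fell in DESeq2, 0 passed in limma voom and 1 fell in edgeR without DMT 5 or without OGD/R 3, and 5 of the 9 had a mean under 1 CPM. The receptor Pdgfrb, which defines pericytes, was at 3.01 through 5.89 to 7.06 CPM in OGD/R and 1.65 through 5.91 to 7.88 CPM in the exposed libraries (0.03 ± 0.24, adjusted p = 0.951). In bulk RNA fewer cells of a type and less RNA per cell cannot be told apart, and the part of pericyte RNA in the falls of Tagln and Tpm2 was not tested.

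Of the other named falls, Nnat, the imprinted neuronatin gene, was at -0.62 ± 0.14 (adjusted p = 0.0182) and Slc2a4, the insulin-responsive glucose transporter, at -0.57 ± 0.16 (adjusted p = 0.0464). Gadd45g, a growth arrest gene, went from 23.9 through 30.9 to 32.1 CPM to 17.4 through 19.8 to 29.3 CPM (-0.50 ± 0.09, adjusted p = 0.00612). Gadd45g, Gimap4 (-0.47 ± 0.11), Cep70 (-0.46 ± 0.11) and Adgrg3 (-0.45 ± 0.13) were added after their values were seen, as protein-coding falls called with and without OGD/R 3. Without OGD/R 5, Nnat was at adjusted p = 0.0705, Slc2a4 at 0.0686, Gimap4 at 0.0761 and Adgrg3 at 0.101. The falls with the smallest p after Cdca7 were Cuedc2 (-0.48 ± 0.08, adjusted p = 0.0015), Exosc2, a subunit of the RNA exosome (-0.33 ± 0.05, adjusted p = 0.00213), Pla1a, a phospholipase (-0.30 ± 0.05, adjusted p = 0.00213), and Ivns1abp (-0.22 ± 0.04, adjusted p = 0.00304). In Exosc2, Pla1a and Ivns1abp every exposed library was below every OGD/R library. Of these 3, Pla1a was highest in normoxia, at 60.2 to 67.5 CPM, and Exosc2 lowest, at 28.5 to 33.5 CPM. Ivns1abp also had its lowest mean in normoxia, at 154 to 167 CPM, a range that overlapped its exposed libraries.

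Barrier genes did not pass the test. Of 16 tight junction genes, 11 adherens junction genes and 20 solute carriers of the barrier, 0 passed in edgeR with all libraries, with medians of 0.05, 0.06 and 0.02. An unadjusted p under 0.05 was reached by 2, 2 and 1 of them, DESeq2 called 0 in each list, and limma voom called 1, an adherens junction gene that was lower. Cldn5, the main claudin of brain endothelium, was at 1864, 1732, 1550, 1205, 2456 and 1555 CPM in OGD/R and from 1373 through 1575 to 2902 CPM in the exposed libraries (-0.05 ± 0.13, adjusted p = 0.863). The 2 highest libraries were DMT 5 and OGD/R 5, those with the high ribosomal protein share, and the estimate changed sign under 4 of the alternatives. Ocln, occludin, was at 0.06 ± 0.09 (adjusted p = 0.725), Tjp1, which codes for ZO-1, at 0.20 ± 0.11 (adjusted p = 0.316), Cdh5, VE-cadherin, at 0.08 ± 0.07 (adjusted p = 0.505) and Slc2a1, the glucose transporter GLUT1, at 0.01 ± 0.04 (adjusted p = 0.937). DMT 5 was the lowest DMT library in Ocln, Tjp1 and Cdh5. Ocln had fallen in OGD/R against normoxia, from 175 to 208 CPM in normoxia to 91.6 to 125 CPM in OGD/R, and its exposed libraries ran from 80.6 to 137 CPM. Without DMT 5, 2 tight junction genes rose, among them Tjp1 (adjusted p = 0.021), 1 adherens junction gene rose and 1 fell, and 2 solute carriers rose. In that fit 9.25% of all genes tested were higher and 14.3% lower, so these counts do not set the barrier lists apart from other genes.

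Inflammatory lists are given beside the background shares of 1.55% of all genes higher and 2.25% lower. Of 18 cytokine and chemokine genes 0 passed in edgeR, DESeq2 or limma voom, with a median of -0.12. An unadjusted p under 0.05 was reached by 4 of them, all lower, and 1 fell without DMT 5. Of 23 interferon response genes 1 rose, Stat2 (0.22 ± 0.05, adjusted p = 0.0218), a transcription factor of the pathway, and 1 fell, Gbp2, an interferon-induced GTPase (-0.37 ± 0.07, adjusted p = 0.00474). Of 13 genes of leukocyte adhesion and of Weibel-Palade bodies, the storage granules of endothelium, 1 passed. It was Angpt2, the Tie2 ligand given above with angiogenesis. Of 15 genes of NF-kB signalling and its feedback 0 passed in edgeR (1 had an unadjusted p under 0.05) and 1 rose in DESeq2 and in limma voom. In the unfolded protein response 2 of 20 rose, Herpud1 (0.24 ± 0.06, adjusted p = 0.0305) and Syvn1 (0.24 ± 0.06, adjusted p = 0.0291), both of endoplasmic reticulum associated degradation, and without OGD/R 5 Syvn1 was at 0.0733.

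Of 16 genes for sigma and serotonin receptors and for DMT metabolism, 7 had enough counts. Maoa, the monoamine oxidase that breaks DMT down, fell by 0.21 on the log2 scale, from 141 through 161 to 179 CPM to 133 through 137 to 150 CPM (SE 0.05, adjusted p = 0.016), and was the 1 gene of this list to pass.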

How the data were processed

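RNA sequencing of endothelial lysates from 23 rat culture inserts was used, with 17 libraries in the comparison of DMT-exposed against OGD/R inserts. Per the labels' protocols, poly-A RNA was enriched and strand-specific, randomly primed libraries were amplified by PCR and read from 1 end. The build Rnor_6.0 and the tools STAR 2.7.10a, RSEM 1.3.3, DESeq2 1.38, cutadapt 3.4 and FastQC 0.11.9 are listed, without role or order, in the submitters' processing notes. The sources used here do not say how reads shared by near-identical genes were assigned. The authors deposited whole-number counts for 32883 gene identifiers, of which 396 had no symbol and 192 symbols stood for several identifiers. The other deposited table is headed TPM, but its values are CPM of a larger read total, not scaled by gene length. Within 0.01 of a read, 100% of its values gave whole reads, and 100% of those equalled the counts. The same edgeR test on those reads called 526 genes. Each column was matched to 1 sample by its library name, and 0 columns were left unused.

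The test was edgeR's quasi-likelihood test (version 4.0.16, R 4.3.3; glmQLFit, robust; glmQLFTest, two-sided) with TMM scaling and filterByExpr (minimum count 10), which kept 13834 genes. All 23 libraries entered 1 fit of 3 means (normoxia, OGD/R, exposed). The 2 exposed subgroups and their difference came from a fit of 4 means. P-values were adjusted by Benjamini and Hochberg's method over all genes tested, and the threshold was 0.05. Levels are gene counts as CPM with TMM scaling, given as lowest, median and highest library, or as the mean, and fold changes are log2 with SE. Counting error follows the total counts given in the report. Each library's ribosomal protein, noncoding and in-gene shares were computed from the same files.

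The 59 gene lists and the exposed group were chosen with earlier results of these data known. Of 977 list symbols 936 were found, 17 through a RefSeq synonym, and 24 are not analysed here. Genes named are the 10 largest rises and falls and the 5 smallest p of each direction among called genes with at least 4 CPM, a symbol that is not provisional and 1 sign in both subgroups, the called list members with the smallest p, and Cldn5, Ocln, Tjp1, Cdh5, Slc2a1, Tmem97, Insig1 and Hmgcs1, with others. This rule took 48 genes, a few of which are not reported here. The choice of 43 more, likewise not all reported, came after seeing values, and other list members are given as counts or as examples that did not pass. Promoter windows came from RefSeq on GRCr8 by symbol, and motifs were searched on both strands.

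Alternatives were DESeq2 size factors, DESeq2 1.42.0, limma 3.58.1 (voom with sample weights, and log2 of the deposited CPM plus 1 or 0.1), a test against a fold of 1.2, other low-count filters, the replicate number as a block, 17 libraries alone, 4 means averaged, the ribosomal protein share as a covariate, and libraries left out. Leaving out OGD/R 3 with DMT 5, using protein-coding genes alone and using the recovered reads were alternatives added after seeing the data. The edgeR fit was checked on counts simulated with known folds. It recovered 22.4% of the genes changed by a fold of 1.2, 79.1% at 1.5 and 84.8% at 2, with 7 false calls among 131. The simulated counts were drawn independently for each gene and library. They held no deviations shared by many genes of a library, such as those of OGD/R 3, OGD/R 5 and DMT 5. The shares recovered and falsely called therefore cannot be carried over to the real libraries.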

Additional observations from a re-analysis of the deposited data

Results flagged for a closer look

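In 28 of 144 sets of 4 to 10 values tested, the highest or lowest library lay far from the rest of its group. Chance alone gives about 1 in 20 such sets, and the sets are not independent because they share libraries. No cause was tested.

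OGD/R 3 had the lowest share of reads in genes, 58.8%, against 71.9% to 75.2%, and the highest noncoding RNA share, 1.24%, against 0.0861% to 0.141%. It was the highest OGD/R library in Rpph1 (181 CPM, others up to 4.30), 5S_rRNA (204 CPM, others up to 2.36), Rn5-8s (714 CPM, others up to 11.3), 5_8S_rRNA (1190 CPM, others up to 14.7), Metazoa_SRP (82.7 CPM, others up to 1.94) and 7SK (97.9 CPM, others up to 5.78).

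OGD/R 5 had a ribosomal protein share of 3.47%, where the next highest OGD/R library had 2.58%. It was lowest in Ulk1, at 21.9 CPM against 27.2 to 30.1 CPM. OGD/R 6 was highest in Ivns1abp, at 221 CPM against 193 to 201 CPM.

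DMT 5 had a ribosomal protein share of 3.68%, against 2.01% to 2.21% in the other DMT libraries. Within its group of 5 it was lowest in the junction genes Ocln (80.6 CPM, others 124 to 137), Tjp1 (266 CPM, others 462 to 542) and Cdh5 (1567 CPM, others 2100 to 2271). It was highest in Cldn5 (2902 CPM, others 1575 to 1646), Hspd1 (239 CPM, others 181 to 193) and Mcm7 (157 CPM, others 117 to 127). It was also highest in 5S_rRNA, at 1.78 CPM, Metazoa_SRP, at 1.37 CPM, and 7SK, at 3.91 CPM.

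Other DMT libraries stood apart in single genes. DMT 1 was lowest in Pla1a, at 38.3 CPM against 42.5 to 43.9 CPM, DMT 2 was lowest in Cry2, at 43.6 CPM against 47.0 to 47.9 CPM, and DMT 4 was highest in Fdft1, at 108 CPM against 95.5 to 98.6 CPM. With BD1063, the fifth library had the lowest noncoding RNA share, 0.0785%, the third was highest in 5_8S_rRNA, at 11.5 CPM, and in Ulk1, at 41.0 CPM, and the first was highest in Stip1, at 184 CPM against 171 to 175 CPM.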

How the results depend on the processing

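The count of 526 genes (215 higher, 311 lower) was 975 with DESeq2 (471 and 504), 1719 with limma voom (662 and 1057), 1702 with the ribosomal protein share as a covariate (686 and 1016) and 314 with 17 libraries alone (140 and 174). It was 73 with limma on the deposited CPM plus 1 (69 and 4), 66 with CPM plus 0.1 (62 and 4), and 4 against a fold of 1.2 (4 and 0). Among protein-coding genes alone it was 392 (197 and 195). Without OGD/R 5 and DMT 5 it was 1912 (846 and 1066), without these, OGD/R 3 and DMT 3 1682 (733 and 949), and without OGD/R 3 and DMT 5 3585 (1651 and 1934). Leaving out single libraries gave 219 to 3276 genes, 95 to 1289 higher and 124 to 1987 lower. The causes were not tested. DESeq2 size factors, other filters, the recovered reads and 4 averaged means gave 474 to 574 genes. In DMT alone the 68 called genes became 458 without OGD/R 5 and DMT 5, and 26 to 1083 with single libraries left out, and in DMT with BD1063 the 735 became 1475, and 76 to 975. Between the 2 exposed subgroups, DESeq2 called 1 gene and every other alternative run called 0. The 77 genes with no overlap became 426 without OGD/R 5 and DMT 5, and 374 without DMT 5.

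Of 16 pairs of libraries with the same replicate number, 4 correlated above 0.1 (range -0.345 to 0.580), and 6 of 17 libraries correlated best with their own number. The highest value was that of OGD/R 5 with DMT 5, the libraries with the high ribosomal protein share. Whether replicate numbers pair the libraries or mark a shared batch cannot be decided from these values. With the replicate number as a block 595 genes were called, 260 higher and 335 lower. No called gene taken by the rule changed sign under any alternative run. Of the 41 called genes taken by the rule, 34 to 41 kept their call when 1 library was left out, except 32 of 39 tested without OGD/R 2, and 18 and 17 of 39 tested kept it in the 2 limma fits on the deposited CPM. Cldn5, which was not called, turned to 0.0229 and 0.0230 in those fits, 0.0817 with the covariate and ran from -0.159 to 0.0833 with single libraries left out. Slc2a1, also not called, turned to -0.00449 without OGD/R 3 and DMT 5 and ran from -0.0162 to 0.0393 with single libraries left out. With 6 and 11 libraries the called log2 fold changes had a median size of 0.30, and a missed threshold does not show equal levels.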
